A study of Mus musculus with 14 samples.

Results

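The MHC class II genes described here are H2-Aa, H2-Ab1, H2-Eb1, H2-DMa, H2-DMb1, H2-Oa, H2-Ob, Cd74 and Ciita, 9 genes chosen by name, each read by its brightest probe set, the one with the highest mean signal over all 14 arrays. Of the 9 members, 8 had a probe set of their own and 7 reached a signal of 200 on at least 1 array and were tested, of 18193 genes with a probe set and 11790 genes tested. H2-DMb1 was measured only by probe sets annotated to H2-DMb2 as well, so it is described by the brighter of those. The arrays had measured total RNA of 1 tumour labelled rhabdomyosarcoma, 12 osteosarcomas and 1 culture of mc3T3, a mouse osteoblast line labelled non-tumorigenic and untreated, grown in alpha-MEM with serum. All 13 tumours had arisen in p53+/- mice, which carry 1 disrupted copy of the tumour suppressor gene p53. The labels give no strain, age or treatment of the mice and no p53 status of mc3T3. Nothing in the labels says whether the tumours came from separate animals, so the p-values measure the spread between these samples. The osteosarcomas carry identifiers that begin with m in 6 tumours, c in 4 and o in 2, and the labels do not say what the letters mean. They are numbered 1 to 12 below only to name them.

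MHC class II molecules are pairs of an alpha and a beta chain that carry peptides from the endosomal pathway to the cell surface, where CD4+ T cells read them. New pairs are held by the invariant chain Cd74 until H2-DM exchanges its remnant for a peptide, and H2-O restrains H2-DM. Most of these genes are transcribed mainly in dendritic cells, macrophages and B cells. Other cells can switch them on under interferon-gamma through the coactivator Ciita. Ciita binds no DNA itself but docks on the RFX, CREB and NF-Y factors assembled at the X and Y boxes of the promoters.

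Letters that match the X and Y boxes are shown for the members in whose promoter window they were found, so that their spelling and spacing can be compared. RefSeq promoter windows of GRCm38.p6, 250 bases before to 50 after the start, were found for 6 of the 9 members (H2-Aa, H2-Eb1, H2-DMa, H2-DMb1, H2-Oa and H2-Ob). Each window was searched on the gene's own strand only. The search was for an X core, spelled GNAAC, followed by 20 to 35 bases and then a Y box, spelled ATTGG. Of the 6 members, 5 held the pair on that strand. Each stretch below is printed on that strand from 5′ to 3′, with the X core and then the Y box in capitals.
H2-Aa (chr17:34287862-34287910, minus strand): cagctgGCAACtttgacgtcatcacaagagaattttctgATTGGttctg
H2-Eb1 (chr17:34305770-34305817, plus strand): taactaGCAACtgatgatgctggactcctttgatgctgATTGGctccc
H2-DMb1 (chr17:34153091-34153139, plus strand): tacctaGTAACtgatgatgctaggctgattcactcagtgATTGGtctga
H2-Oa (chr17:34092297-34092345, plus strand): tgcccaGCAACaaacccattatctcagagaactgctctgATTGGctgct
H2-Ob (chr17:34238812-34238857, plus strand): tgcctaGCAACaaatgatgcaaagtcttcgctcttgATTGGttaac
The 2 boxes stood 25 to 28 bases apart in all 5, and the X core began 76 to 94 bases before the annotated start. The same pair was present on the gene's strand in 1.327% of the 32851 promoter windows in the table and on either strand in 2.673%. On either strand, ATTGG alone was present in 37.408% and GNAAC alone in 84.847%. The letters and the spacing were chosen with the members' sequences in view, so these shares are no test. Neither of the 2 windows of H2-DMa held the pair on the gene's strand, and the pair was also in the window of H2-Eb2, a class II beta chain gene that is no member. A match is a description of these letters, not a bound site.

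The values are array signals on a linear scale, and each array's trimmed mean was 500. The median signal of an array lay between 67.0 and 111.1, and 33.768 to 40.347% of its probe sets reached 200. No detection calls were used, so signals under about 200 could not be told from background. In the tumour labelled rhabdomyosarcoma the muscle genes Myod1 (39.4), Myog (65.9) and Des (88.6) were under 200, as were 6 of the 7 genes of the skeletal muscle list, so its muscle identity was not seen in these values and it is called by its label throughout. In mc3T3 the bone genes Ibsp (37.4) and Dmp1 (62.8) were under 200. The bone genes Sp7 (1514.6) and Alpl (1550.4) were above 200 there, and the osteoblast collagen gene Col1a1 had a signal of 62259. Differences are on the log2(signal + 30) scale with their standard error, and both single arrays borrow the spread of the 12 osteosarcomas. A gene is called when limma's adjusted p (Benjamini-Hochberg, over 11790 genes) is under 0.05 and the change is at least 1 on that scale.

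The 3 antigen-presenting chains were at or near the floor in mc3T3, high in every osteosarcoma and higher still in the tumour labelled rhabdomyosarcoma. H2-Aa, the alpha chain of the I-A molecule, had a signal of 42277 in the tumour labelled rhabdomyosarcoma, 1058 to 21079.7 (median 8174) in the osteosarcomas, and 2.4 in mc3T3. H2-Ab1, its beta chain, had 28056 in the tumour labelled rhabdomyosarcoma, 546 to 9205 (median 2553) in the osteosarcomas, and 6.9 in mc3T3. H2-Eb1, the beta chain of the I-E molecule, had 33297 in the tumour labelled rhabdomyosarcoma, 363 to 13598 (median 3569.5) in the osteosarcomas, and 16.3 in mc3T3. No osteosarcoma overlapped either single array for any of the 3 genes. Osteosarcoma 2 was the highest of the 12 for each, and osteosarcoma 12 the lowest.

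Against mc3T3, H2-Aa was higher in the osteosarcomas by 7.65 ± 1.14 (SE, limma adjusted p = 0.000392), H2-Eb1 by 6.05 ± 1.37 (adjusted p = 0.00862) and H2-Ab1 by 5.95 ± 1.16 (adjusted p = 0.00313). Because the mc3T3 signals lie under the pseudocount of 30, the sizes move with it, and the difference of H2-Aa was 9.29 with a pseudocount of 8 and 6.02 with 100. With the 4 c-identifier osteosarcomas alone the differences of H2-Ab1 (6.16) and H2-Eb1 (6.18) no longer passed (limma adjusted p = 0.0636 and 0.0802). The other 3 probe sets of H2-Aa and 2 of H2-Ab1 followed the brightest H2-Aa set across the osteosarcomas, with r from 0.964 to 0.993 over 12 tumours, as probe sets of one gene family on the same arrays. In the fit over 22479 probe sets, where 6.99% were called higher, 3 of the 4 for H2-Aa and 2 of the 3 for H2-Ab1 were called and 0 were called lower, against 4.23% of all probe sets, while the dimmest set of H2-Aa (limma adjusted p = 0.0899) and of H2-Ab1 (adjusted p = 0.0973) did not pass. Sets with _x_ or _s_ in their name hold probes that can match more than 1 transcript, and both brightest I-A sets are of that kind.

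The alpha chain that would pair with H2-Eb1 was not seen. H2-Ea had 3 probe sets, all under 200 on every array and none above 70.2. Another beta chain gene, H2-Eb2, was at 25.9 in the tumour labelled rhabdomyosarcoma, 9.50 to 78.2 in the osteosarcomas and 33.3 in mc3T3, so its values in the 3 groups overlapped at a level that could not be told from background, although its promoter window holds the X and Y letters.

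Cd74, the invariant chain, had a signal of 34719 in the tumour labelled rhabdomyosarcoma, 1005 to 27826 (median 7487) in the osteosarcomas, and 306 in mc3T3. It was the only member above 200 in mc3T3 that has a probe set of its own, and the groups again did not overlap. The difference of the osteosarcomas from mc3T3 was 4.14 ± 1.29 (SE, limma adjusted p = 0.0455). That call lay at the threshold: the adjusted p was 0.0533 without osteosarcoma 1, and between 0.0567 and 0.0603 without osteosarcoma 3, 4, 6, 8, 9 or 10. With no filter on low signals it was 0.0587, with the m-identifier tumours alone 0.0517 and with the c-identifier tumours alone 0.194 (limma).

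H2-DMa, the alpha chain of the peptide exchange factor H2-DM, had the same order of groups. It had 8433 in the tumour labelled rhabdomyosarcoma, 221 to 1416 (median 654) in the osteosarcomas, and 88.9 in mc3T3, with no overlap. Its difference was 2.54 ± 0.74 for the osteosarcomas against mc3T3 (SE, limma adjusted p = 0.0343). The call was lost with a pseudocount of 100 (adjusted p = 0.0520), with the mean of its 2 probe sets (0.123), where the other set was under 200 on every array, and with the c-identifier tumours alone (0.164), all by limma. The brighter probe set shared by H2-DMb1 and H2-DMb2, the beta chains of H2-DM, gave 4434 in the tumour labelled rhabdomyosarcoma, 616 to 1934 (median 1304) in the osteosarcomas, and 226 in mc3T3. In the fit by probe set this was 2.36 ± 0.48 higher in the osteosarcomas than in mc3T3 (SE, limma adjusted p = 0.00482), and how much of the signal comes from H2-DMb1 cannot be told apart. Probe sets of H2-DMb2 alone reached no more than 251 in any osteosarcoma.

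H2-Oa and H2-Ob, the chains of H2-O, were under 200 on every osteosarcoma array. H2-Oa had a signal of 342 in the tumour labelled rhabdomyosarcoma, 4.7 to 108.9 (median 35.5) in the osteosarcomas, and 4.8 in mc3T3. H2-Ob had 95.1 in the tumour labelled rhabdomyosarcoma, 1.7 to 40.3 (median 24.5) in the osteosarcomas, and 3.5 in mc3T3, and was not tested because no array reached 200. Most osteosarcoma values of both genes were above that of mc3T3 (11 of 12 for H2-Oa and 10 of 12 for H2-Ob), at levels where a signal could not be told from background.

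Ciita, the coactivator of class II genes, was also dim. It had a signal of 233 in the tumour labelled rhabdomyosarcoma, 9.0 to 139 (median 72.3) in the osteosarcomas, and 4.3 in mc3T3, so the groups did not overlap but no osteosarcoma reached 200. The difference of the osteosarcomas from mc3T3 was 1.50 ± 0.60 (SE, limma adjusted p = 0.119). It passed with the m-identifier tumours alone (1.60, limma adjusted p = 0.0295) and without osteosarcoma 11, the tumour with the lowest Ciita signal (1.62, adjusted p = 0.0445). Ciita and H2-Oa entered the test only because the tumour labelled rhabdomyosarcoma passed 200, so that their difference between it and the osteosarcomas was favoured by the filter. The other 2 Ciita probe sets stayed under 200 on every array.

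**Figure D1:**
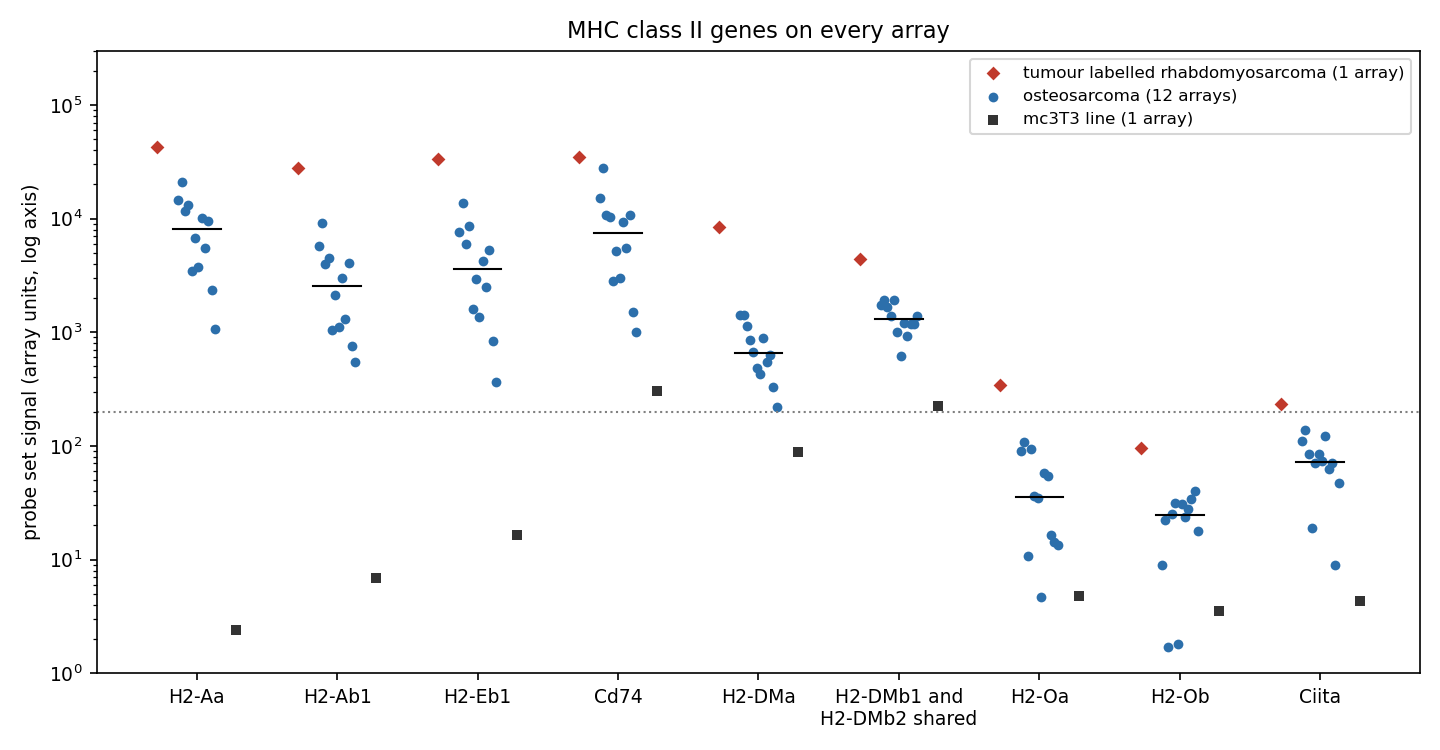
Signal of each class II gene on every array (array units, log axis). Diamonds are the tumour labelled rhabdomyosarcoma (1 array), circles the 12 osteosarcomas with their median as a bar, squares mc3T3 (1 array), and the dotted line is 200. The diamond lies above all 12 circles for every gene, and H2-Oa, H2-Ob and Ciita have all their circles under 200.

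Of the 7 tested members, 5 (H2-Aa, H2-Ab1, H2-Eb1, Cd74 and H2-DMa) were called higher in the osteosarcomas than in mc3T3, against 8.63% of all genes tested, and 0 were called lower, against 4.56%. The median difference of the 7 was 4.14, where that of all genes was -0.02. All 12 osteosarcomas were above mc3T3 for 6 of the 8 members with their own probe set, a pattern that 21.5% of all genes tested showed. With the c-identifier tumours alone only H2-Aa was called. In whole tumours, fewer cells of a type and less RNA per cell cannot be told apart, and mc3T3 is a culture of 1 cell type.

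Markers of macrophages moved with this difference, and so did those of endothelial cells and osteoclasts. The endothelial list had 7 of 7 genes called higher, with summed signals of 4159 to 13074 in the osteosarcomas and 166 in mc3T3. The osteoclast list also had 7 of 7 called higher, with 62693 to 135875 in the osteosarcomas and 4290 in mc3T3. Of the 12 genes of the macrophage list, 11 were called higher in the osteosarcomas than in mc3T3 and 0 lower, with a summed signal of 68434 to 164395 in the osteosarcomas and 1016 in mc3T3. Among them, C1qa, a complement subunit made by macrophages, was at 2536 to 19858 in the osteosarcomas and 3.9 in mc3T3. Of 7 tested dendritic cell genes 2 were called higher (Zbtb46 and Irf8), of 6 tested T cell genes 1 (Cd5), and of 2 tested B cell genes none. The summed signals in the osteosarcomas and mc3T3 were 872 to 2859.8 and 372 for the dendritic cell list, 609.7 to 6373 and 3289 for the T cell list, in which Thy1 had 3039 in mc3T3, and 369.7 to 1179.9 and 426 for the B cell list. The defining B cell genes Ms4a1, Cd79a and Pax5 were under 200 on every array. The part of these cells in the result was not tested.

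**Figure D2:**
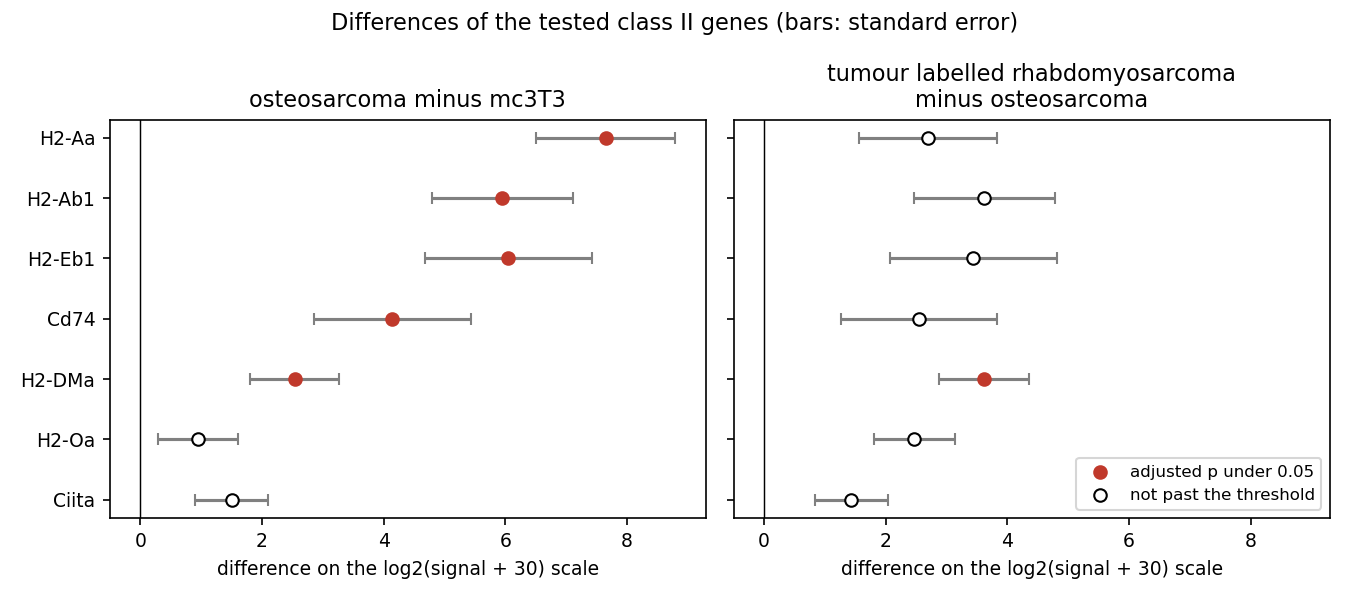
Difference of each tested class II gene on the log2(signal + 30) scale, with its standard error as a bar, for the osteosarcomas minus mc3T3 on the left and the tumour labelled rhabdomyosarcoma minus the osteosarcomas on the right. Filled points passed an adjusted p of 0.05: 5 genes on the left and H2-DMa alone on the right.

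The tumour labelled rhabdomyosarcoma had more signal than every osteosarcoma for all 8 members with their own probe set and for the shared H2-DMb set, where 16.6% of all genes tested lay above every osteosarcoma. Of these members, H2-Oa and Ciita passed 200 only in this tumour, so the filter favoured their place above the osteosarcomas. H2-Ob, at 95.1, was under 200 in this tumour too and was not tested. Only H2-DMa passed the test, with a difference of 3.62 ± 0.74 (SE, limma adjusted p = 0.0151). Of the 7 tested members 1 was therefore called higher, against 1.18% of all genes tested, and 0 lower, against 1.76%. The median difference of the 7, with H2-Oa and Ciita among them, was 2.70, where that of all genes was 0.05.

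The chains and Cd74 did not pass. H2-Ab1 was 3.62 ± 1.16 higher (SE, limma adjusted p = 0.121), H2-Eb1 3.44 ± 1.37 (adjusted p = 0.222), H2-Aa 2.70 ± 1.14 (adjusted p = 0.257) and Cd74 2.55 ± 1.29 (adjusted p = 0.354). H2-Oa, at 2.47 ± 0.66 (SE, limma adjusted p = 0.0605), passed when osteosarcoma 2 (adjusted p = 0.0396) or osteosarcoma 4 (0.0447) was left out. Ciita differed by 1.44 ± 0.60 (SE, limma adjusted p = 0.255). The call of H2-DMa was lost with the mean of its probe sets (limma adjusted p = 0.0523) and with the c-identifier tumours alone (0.186).

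All 3 probe sets of H2-DMb2 alone were called higher in the tumour labelled rhabdomyosarcoma in the fit by probe set, where 0.908% of all probe sets were called higher and 1.16% lower, with differences of 1.91 to 2.56 (limma adjusted p = 0.00642 to 0.0379). For 2 of these 3 sets, with highest osteosarcoma signals of 193 and 120.4, only this tumour passed 200, so the filter favoured their difference. The set shared with H2-DMb1 was 1.76 ± 0.48 higher (SE, limma adjusted p = 0.0801). In this tumour the macrophage list summed to 192887, above all 12 osteosarcomas (68434 to 164395), with 0 of its 12 genes called, and the dendritic cell list to 4382 (872 to 2859.8 in the osteosarcomas), with Cd209a, a lectin of monocyte-derived dendritic cells, called higher by 2.72 (limma adjusted p = 0.0161). Cd209a also passed the filter only through this tumour, with 589 there against at most 121.6 in the osteosarcomas. The macrophage genes did not all follow their sum. Of the 12, 7 lay above every osteosarcoma, while Cd68, at 5515, lay below all of them (7551 to 23230). The T cell list summed to 3566, inside the 609.7 to 6373 of the osteosarcomas, of which Thy1 alone gave up to 6026. Its mean level on the log2 scale was 8.11, above all 12 osteosarcomas (6.16 to 7.43), and 0 of its 6 tested genes were called. Cd3d, a chain of the T cell receptor complex, was at 419 against at most 174.0. Cd3d, Cd3g and Cd8b1 passed the filter only through this tumour, so the filter favoured their difference. The osteoclast list was lower, 2111 against 62693 to 135875 in the osteosarcomas, with 7 of 7 genes called lower. The part of these differences in the class II values was not tested.

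Among the 12 osteosarcomas the class II chains were some of the most variable genes. The SD on the log2 scale was 1.24 for H2-Aa, 1.26 for H2-Ab1, 1.50 for H2-Eb1 and 1.40 for Cd74, where the median over all genes tested was 0.43. Between 96.6 and 98.4% of all genes tested had a smaller SD than these 4. In signal, the highest osteosarcoma exceeded the lowest 19.9-fold for H2-Aa, 16.9-fold for H2-Ab1, 37.5-fold for H2-Eb1 and 27.7-fold for Cd74. H2-DMa varied less, 6.41-fold (SD 0.78), and the shared H2-DMb set 3.14-fold.

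The chains varied together, and nearly in one order. For H2-Aa the signals from osteosarcoma 1 to 12 were 14588, 21079.7, 11614, 13155, 3453, 6777, 3731, 10072, 5526, 9571, 2375 and 1058. Ranked by the mean of the centred levels of H2-Aa, H2-Ab1 and H2-Eb1, osteosarcomas 2, 1, 4, 3, 10 and 8 were high, 6 and 9 in the middle, and 5, 7, 11 and 12 low. Cd74 had the same 6 tumours on top. Neighbours in this order, such as osteosarcomas 5 and 7 with H2-Aa signals of 3453 and 3731, are single arrays and have no error of their own.

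**Figure D3:**
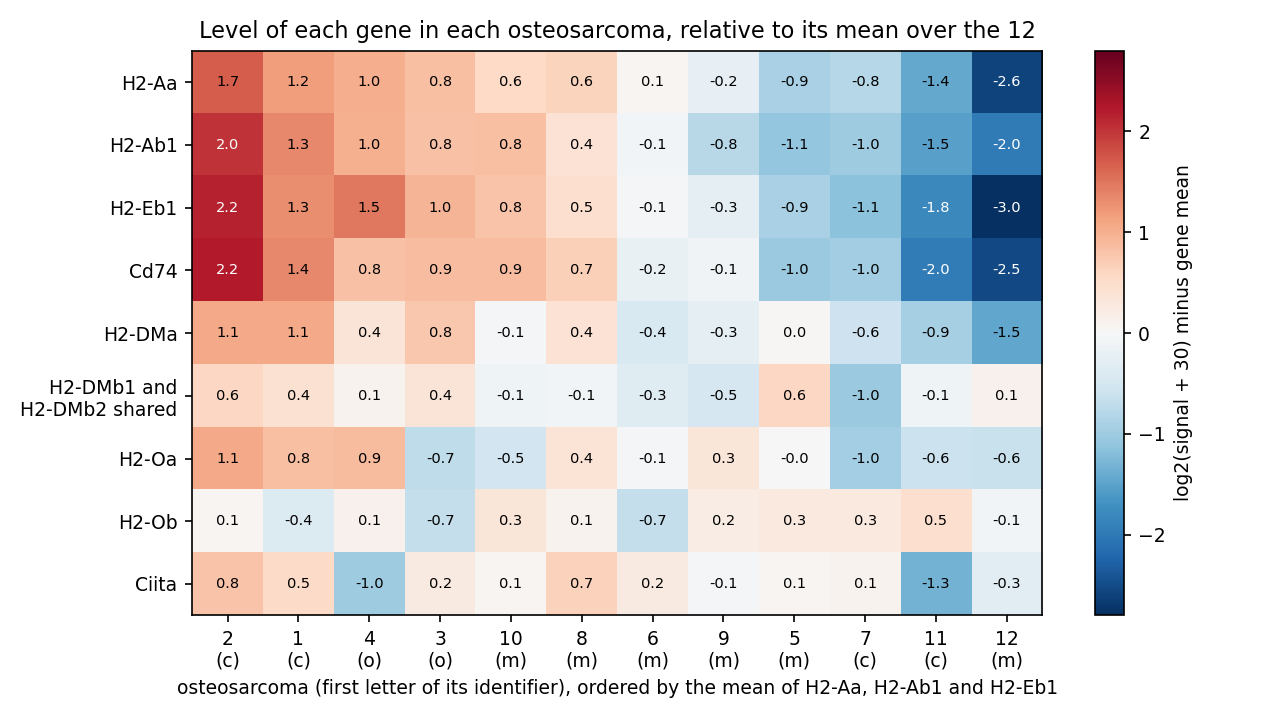
Level of each class II gene in each osteosarcoma, log2(signal + 30) minus the gene's mean over the 12 tumours (red above, blue below, number printed in each cell), with tumours ordered by the mean of H2-Aa, H2-Ab1 and H2-Eb1. The top 4 rows share 1 gradient from tumour 2 to tumour 12, and H2-DMa follows it in smaller steps. The shared H2-DMb set and Ciita show it less evenly, with Ciita at -1.0 in tumour 4. H2-Ob, with r = -0.30 against H2-Aa, does not show it.

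Across the 12 osteosarcomas H2-Aa was correlated with H2-Eb1 (r = 0.99, rho = 0.98), Cd74 (r = 0.99, rho = 0.96) and H2-Ab1 (r = 0.97, rho = 0.98), each with a two-sided permutation p of 1e-05, the smallest that 100000 permutations can give, and an adjusted p of 2.67e-05 for both measures over 8 relations. These 8 relations were chosen after the levels had been seen. H2-DMa followed too (r = 0.92, permutation p = 2e-05, adjusted p = 4e-05; rho = 0.90, permutation p = 0.00018, adjusted p = 0.00036). The slope on H2-Aa was near 1 for H2-Ab1 (0.98), Cd74 (1.11) and H2-Eb1 (1.20), and 0.58 for H2-DMa, so H2-DMa had the smaller slope on this scale. Without osteosarcomas 11 and 12, the farthest from the median of H2-Aa, r was 0.99 for H2-Eb1, 0.98 for Cd74, 0.98 for H2-Ab1 and 0.83 for H2-DMa. Within the 6 m-identifier tumours r was 0.99, 0.99, 0.94 and 0.85 in the same order, the last without passing (exact permutation p = 0.0528, adjusted p = 0.106), and the c- and o-identifier tumours are too few for a correlation.

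The other subunits did not follow the chains as closely. H2-Oa had r = 0.65 with H2-Aa (permutation p = 0.0225, adjusted p = 0.0360; rho = 0.66, permutation p = 0.0241, adjusted p = 0.0386), all of it below a signal of 200, and without osteosarcomas 11 and 12 it no longer passed (r = 0.59, adjusted p = 0.118). The shared H2-DMb set had r = 0.32 (permutation p = 0.316, adjusted p = 0.344; rho = 0.37, permutation p = 0.236, adjusted p = 0.236), with r = -0.44 among the m-identifier tumours. In osteosarcoma 12, which had the least H2-Aa, H2-Ab1, H2-Eb1 and Cd74, that set had 1400, above its median of 1304. H2-Ob had r = -0.30 with H2-Aa (permutation p = 0.344, adjusted p = 0.344; rho = -0.45, permutation p = 0.149, adjusted p = 0.170). The median signal of the array was taken after scaling, as a measure of the whole array and not of a gene. It had r = 0.57 with H2-Aa (permutation p = 0.0521, adjusted p = 0.0694; rho = 0.50, permutation p = 0.0993, adjusted p = 0.132), and r = 0.18 without osteosarcomas 11 and 12.

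Ciita, whose product drives class II genes, was compared with each of the other members over the same 12 tumours, in a family of 13 relations. The r was 0.50 with H2-Aa (permutation p = 0.0975, adjusted p = 0.141; rho = 0.64, permutation p = 0.0298, adjusted p = 0.0487), 0.58 with Cd74 and 0.57 with H2-DMa (permutation p = 0.0480 and 0.0513, adjusted p = 0.111 for both), and none of the 8 passed by r. By rank, 3 of the 8 passed (H2-Aa, Cd74 and H2-DMa, adjusted p = 0.0465 to 0.0487). Osteosarcomas 4 and 11 had the lowest Ciita signals. Osteosarcoma 4 had 18.9 beside an H2-Aa signal of 13155, the third highest. Osteosarcoma 11 had 9.0 beside an H2-Aa signal of 2375, so it was low in both. The 2 were left out together, and their separate parts were not tested. Without these 2 tumours, the farthest from the median of Ciita, 6 of the 8 relations passed, with r = 0.85 for H2-Aa (permutation p = 0.00125, adjusted p = 0.00762) and 0.70 to 0.84 for H2-Ab1, H2-Eb1, H2-DMa, Cd74 and H2-Oa. Within the 6 m-identifier tumours r with H2-Aa was 0.77 (exact permutation p = 0.107, adjusted p = 0.199). All Ciita values in these tumours lie below the level at which a signal can be told from background.

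Tumours with m and c identifiers did not separate. H2-Aa had signals of 10072, 9571, 6777, 5526, 3453 and 1058 in the m-identifier tumours and 21079.7, 14588, 3731 and 2375 in the c-identifier tumours, so the groups overlapped, and the difference was -0.57 ± 0.70 (SE, limma adjusted p = 0.893). Over the 7 tested members the differences lay between -0.65 (H2-Ab1) and 0.07 (Ciita), and 0 were called. Of all genes tested, 0.017% were called higher and 0% lower in this comparison, with 867 at an unadjusted p under 0.05.

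Of 16 tested genes among 20 other class II pathway genes, 5 (Ctss, Cd86, Ifi30, Lgmn and Rfxap) were called higher in the osteosarcomas than in mc3T3, where 8.63% of all genes tested were, and 0 lower. Ctss, the cathepsin that trims the invariant chain in antigen-presenting cells, had 28499 in the tumour labelled rhabdomyosarcoma, 4124 to 20310 in the osteosarcomas, and 31.5 in mc3T3, a difference of 7.61 ± 0.67 for the osteosarcomas against mc3T3 (SE, limma adjusted p = 3.78e-06). Cd86, a costimulatory ligand, was higher by 3.15 ± 0.71, Ifi30, the lysosomal thiol reductase, by 2.65 ± 0.48, Lgmn, an asparaginyl endopeptidase, by 2.03 ± 0.58, and Rfxap, an RFX subunit, by 1.17 ± 0.30 (SE, limma adjusted p = 0.00842, 0.00183, 0.0316 and 0.0167 in that order). Rfx5, the RFX subunit that contacts the X box, was at 275 to 876 in the osteosarcomas and 1014 in mc3T3, a difference of -0.95 that did not pass (limma adjusted p = 0.237). Ctsl, another cathepsin of the pathway, differed by 0.16 and did not pass (limma adjusted p = 0.864). In the tumour labelled rhabdomyosarcoma 1 of the 16, H2-DMb2, was called higher, where 1.18% of all genes tested were, and 0 lower. Of the 16, 7 lay above every osteosarcoma, while Ifi30, at 7870.5, lay below all of them (8473 to 28496).

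The interferon-gamma list, compared between the osteosarcomas and mc3T3, holds components of the pathway as well as genes that the cytokine induces. The components include Ifng itself, the receptor chains Ifngr1 and Ifngr2 and the kinases Jak1 and Jak2. The same cytokine also switches on Ciita. Of 15 tested genes 2 were called higher, where 8.63% of all genes tested were, the receptor chain Ifngr1 (1.78 ± 0.42, SE, limma adjusted p = 0.0116) and the T cell chemokine Cxcl9 (4.48 ± 1.07, adjusted p = 0.0118), and 0 lower. Irf1, an induced transcription factor, had 4247 in the tumour labelled rhabdomyosarcoma, 881 to 2431 in the osteosarcomas, and 2217 in mc3T3, and passed in neither comparison. Against the osteosarcomas, the tumour labelled rhabdomyosarcoma had 1 gene of the 15 called higher, the GTPase Gbp2 (3.48, limma adjusted p = 0.0167), with a signal of 13715 against 408 to 3894. Ifng itself was under 200 on every array, with 21.6 in the tumour labelled rhabdomyosarcoma, 1.3 to 20.1 in the osteosarcomas and 48.9 in mc3T3.

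Across the osteosarcomas H2-Aa was correlated with the mean levels of 4 of 5 marker lists by r and of all 5 by rank. The r was 0.86 with the T cell list (permutation p = 0.00031, adjusted p = 0.00403; rho = 0.75, permutation p = 0.00718, adjusted p = 0.0233) and 0.82 with the B cell list (permutation p = 0.00115, adjusted p = 0.00747; rho = 0.85, permutation p = 0.00099, adjusted p = 0.0129). It was 0.76 with the interferon-gamma list (permutation p = 0.00434, adjusted p = 0.0188; rho = 0.76, permutation p = 0.00564, adjusted p = 0.0233) and 0.74 with the dendritic cell list (permutation p = 0.00595, adjusted p = 0.0193; rho = 0.76, permutation p = 0.00553, adjusted p = 0.0233). The relation with the dendritic cell list did not pass by r with quantile normalization (r = 0.65, permutation, adjusted p = 0.0759) or with a pseudocount of 8 (r = 0.68, adjusted p = 0.05). Of the B cell genes 7 of 9, and of the T cell genes 5 of 8, were under 200 in all 12 osteosarcomas, so those list means rest largely on signals that could not be told from background. Of the dendritic cell genes 3 of 9 were under 200 in all 12, and others reached 200 in no more than 2. The mean of the dendritic cell list therefore rests in part on such signals too. With the macrophage list, whose 12 genes were all bright, r was 0.50 (permutation p = 0.0970, adjusted p = 0.141) and rho 0.72 (permutation p = 0.0106, adjusted p = 0.0276).

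The macrophage list and H2-Aa parted in single tumours. Osteosarcoma 12 had the least H2-Aa (1058) with a macrophage sum of 130949, above the 96414 of osteosarcoma 10, whose H2-Aa signal was 9571. The osteoclast sum of osteosarcoma 12 was 135803, near the 135875 of osteosarcoma 4, whose H2-Aa signal was 13155. The part of osteoclasts in the macrophage sums was not tested. Within the 6 m-identifier tumours r with the macrophage list was -0.44 (exact permutation p = 0.433, adjusted p = 0.512). Among the same 6 it was 0.84 for both the dendritic cell and B cell lists, 0.82 for the T cell list and 0.81 for the interferon-gamma list, none past the adjusted threshold (exact permutation p = 0.0278 to 0.0556, adjusted p = 0.181). Without the 2 tumours farthest from each list's median r was 0.36 for the macrophage list and 0.69 to 0.77 for the other 4, which still passed by r (permutation, adjusted p = 0.0203 to 0.0355). By rank, the macrophage (rho = 0.72) and B cell (rho = 0.77) lists still passed (permutation, adjusted p = 0.0498 for both), while the dendritic cell (rho = 0.67, adjusted p = 0.0623), interferon-gamma (rho = 0.66, adjusted p = 0.0623) and T cell (rho = 0.56, adjusted p = 0.126) lists did not.

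**Figure D4:**
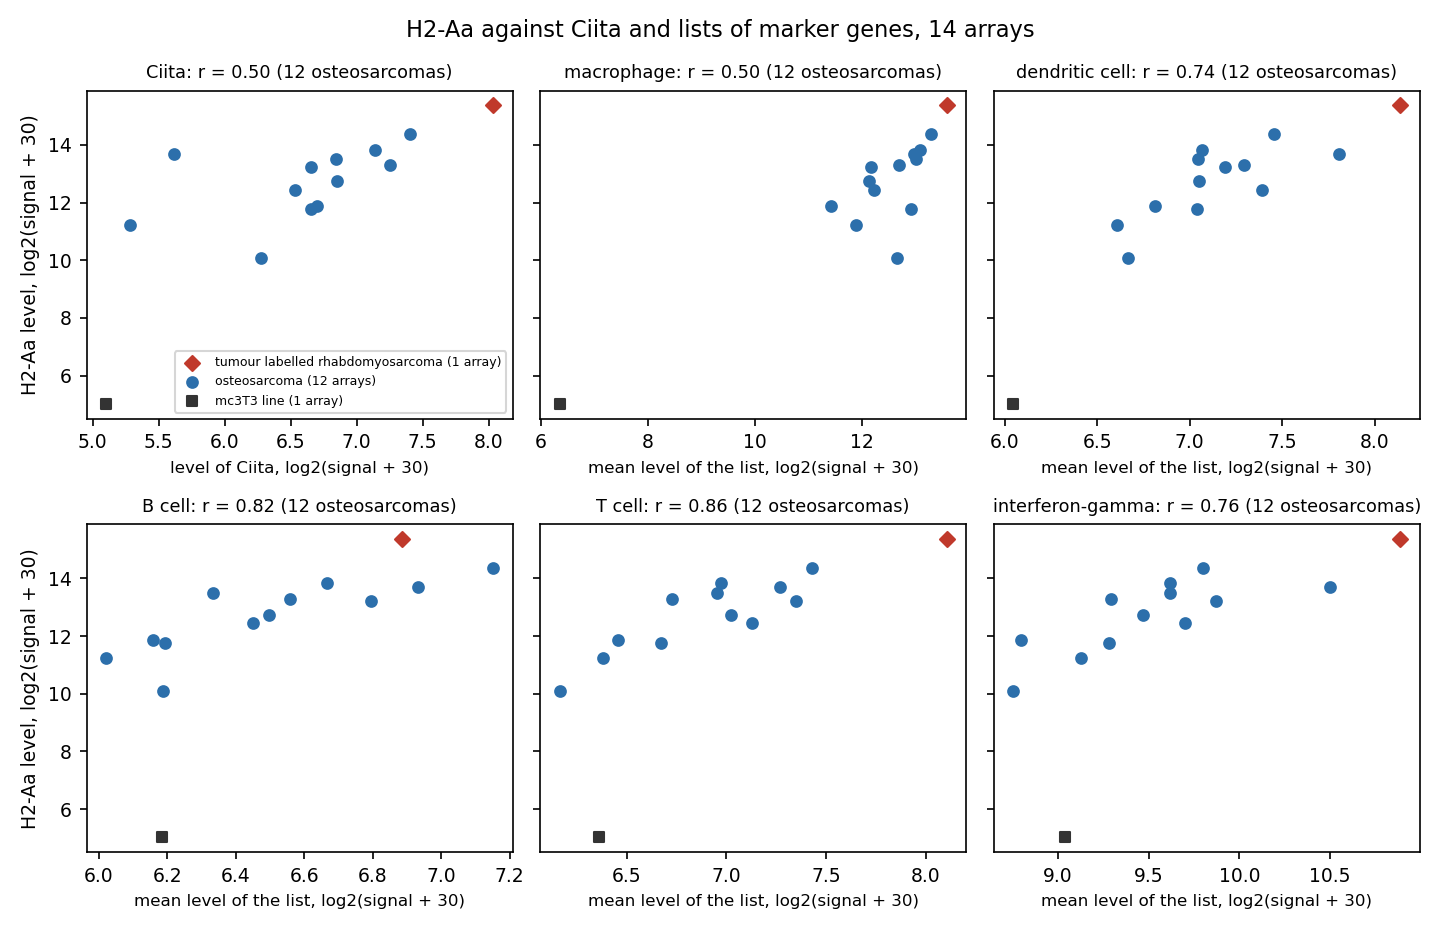
Level of H2-Aa (vertical axis) against the level of Ciita or the mean level of a marker list (horizontal axes), all log2(signal + 30), on 14 arrays. Circles are the 12 osteosarcomas, over which r is printed, the diamond the tumour labelled rhabdomyosarcoma and the square mc3T3. In the Ciita panel 2 osteosarcomas lie far to the left of the rest, and in the macrophage panel 2 low-H2-Aa osteosarcomas lie to the right.

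The class II genes other than Cd74 (chromosome 18) and Ciita (chromosome 16) lie together on chromosome 17, with class I pathway genes between them, and neighbours differed in spread. Between H2-DMb1 and H2-Ob lie Psmb9 and Psmb8, immunoproteasome subunits, and Tap1 and Tap2, the peptide transporter of the class I pathway. Over the 12 osteosarcomas their SDs were 0.80, 0.93, 0.75 and 0.53, against 1.24 to 1.50 for H2-Aa, H2-Ab1 and H2-Eb1. The other tested class II members there, H2-DMa and H2-Oa, had 0.78 and 0.69, both under Psmb9 and Psmb8. As a description over 12 arrays that share their scaling, r with H2-Aa was 0.60 for Psmb9, 0.43 for Psmb8, 0.68 for Tap1 and 0.06 for Tap2. Brd2, a chromatin reader gene between H2-Oa and H2-DMa, had an SD of 0.42 and r = 0.09. None of the 5 was called in either comparison.

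**Figure D5:**
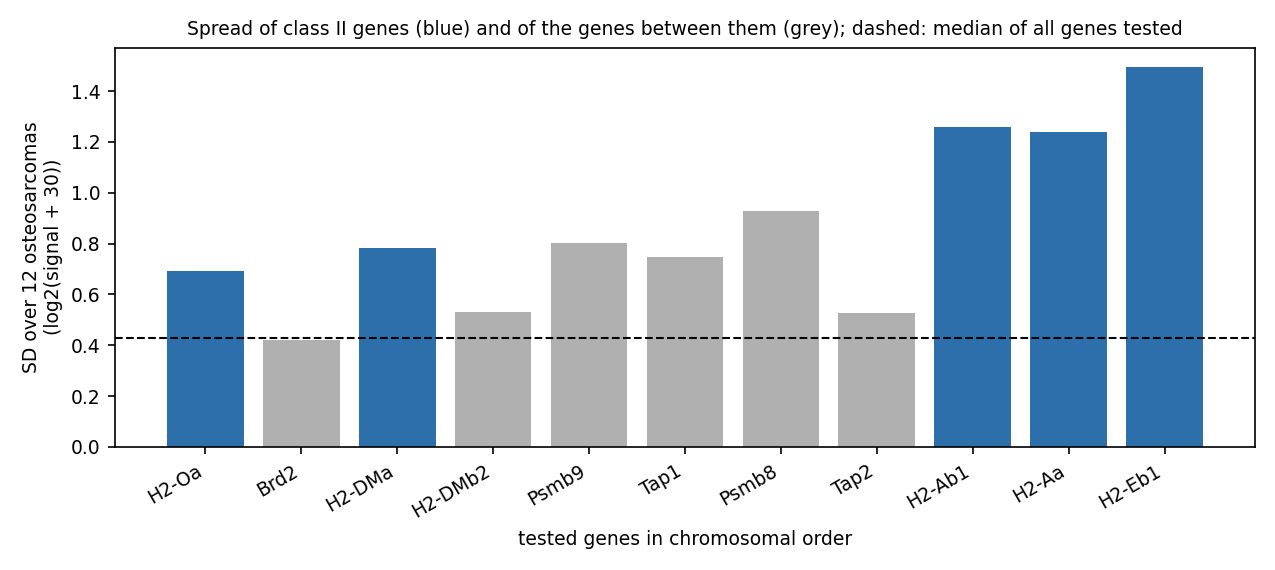
SD over the 12 osteosarcomas on the log2(signal + 30) scale, as bars from 0, for tested genes in chromosomal order on chromosome 17. Blue bars are class II members, grey bars the genes between them, and the dashed line is the median of all genes tested (0.43). The 3 bars on the right, H2-Ab1, H2-Aa and H2-Eb1, are the tallest. The signals behind the bar of H2-Oa were under 200 in all 12 tumours.

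The genes outside the list whose pattern over the 12 osteosarcomas was most like the mean of H2-Aa, H2-Ab1 and H2-Eb1, by Pearson's r over all genes tested and with no test, were Dok2 (0.94), Abcg3 (0.93), Nrros, Aif1, Apobec3, Lst1 and Themis2 (0.91 each), Shmt1, Gpatch2l and Fam78a (0.90 each). Of these 10, Nrros, Aif1 and Fam78a were called higher in the osteosarcomas than in mc3T3. Aif1, which encodes the macrophage protein Iba1, had 6076 in the tumour labelled rhabdomyosarcoma, 455 to 3077 in the osteosarcomas, and 54.5 in mc3T3. Abcg3 did not share the order of the groups: it had 123 in the tumour labelled rhabdomyosarcoma, inside the 18.9 to 526 of the osteosarcomas.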

How the data were processed

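The authors deposited linear intensity values (signals) for 45101 probe sets. Per the submitters' processing notes the software was GCOS, and no source used here gives its version, background step or summary method. Arrays were set to a 2% trimmed mean of 500 before log2(signal + 30) was taken. Symbols came from the platform annotation, updated by Entrez identifier for 34754 probe sets (RefSeq, GRCm38.p6): 34945 probe sets had 1 symbol, 932 several and 9160 none. Genes reaching 200 on at least 1 array were tested with limma 3.58.1 in R 4.3.3 (3 groups, 11 residual and 3.56 prior degrees of freedom, two-sided, Benjamini-Hochberg), and the m and c comparison among osteosarcomas alone. No 2 arrays were identical (highest correlation 0.953). The number of arrays limits the precision. Correlations were tested by 100000 permutations, and within 6 tumours by their 720 orders. The fits were tested on simulated data. The members, lists, promoter letters and tests were chosen with earlier results of these data known. Named were all members, the called genes of the pathway and interferon-gamma lists with Rfx5, Ctss, Ifi30, Ifng and Irf1, and the 10 genes most alike. Up to 5 genes of each cell type list were named too. The genes between the members were added after their values were seen. Alternatives changed the pseudocount (8, 100), the filter (none, 500), the scaling (quantile), the probe set rule, the groups fitted and the tumours included.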

Additional observations from a re-analysis of the deposited data

How the results depend on the processing

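Of 42 single differences and correlations under 540 alternatives, 488 kept their direction and side of the threshold, 27 lost the call, 14 gained it and 11 changed sign. The count of 5 members called higher against mc3T3 was 1 with the c-identifier tumours alone and 4 to 6 when 1 osteosarcoma was left out. The 1 member called in the tumour labelled rhabdomyosarcoma became 2 with a pseudocount of 100, with quantile scaling and with the m-identifier tumours alone, 0 with the c-identifier tumours alone, and 1 to 2 when 1 osteosarcoma was left out. With the c-identifier tumours alone, all genes called numbered 571 in place of 1555 against mc3T3, and 104 in place of 347 for the tumour labelled rhabdomyosarcoma, with 4 tumours in place of 12. Relations passing went to 6 in place of 0 for Ciita without its 2 farthest tumours, and within the m-identifier tumours to 0 in place of 4 for the marker lists and 3 in place of 5 for H2-Aa with the members, with 6 tumours in place of 12. The sign changes were all of values that had not passed. For m minus c they were Ciita with a pseudocount of 100 (-0.0064) and, when 1 osteosarcoma was left out, Ciita (-0.38 to 0.33), H2-Oa (-0.51 to 0.15), H2-Eb1 (-1.26 to 0.058) and Cd74 (-1.26 to 0.13). Within the m-identifier tumours they were r of Ciita (-0.15) and H2-Aa (-0.44) with the shared H2-DMb set, of H2-Aa with the macrophage list (-0.44) and with H2-Ob (0.082). The causes were not tested. In the tumour labelled rhabdomyosarcoma, Ciita was called with the mean of its probe sets (limma adjusted p = 0.0397). No paired analysis was possible because the labels give no replicate numbers. Signals under about 200, which include all osteosarcoma values of Ciita, H2-Oa and H2-Ob, limit what can be said of those genes, and each single array has no spread of its own.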

Other observations

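Marchf1, which encodes a ubiquitin ligase that removes class II molecules from the cell surface, was looked at after its values were seen. It had a signal of 935 in the tumour labelled rhabdomyosarcoma, 41.0 to 337 in the osteosarcomas and 24.8 in mc3T3, so the groups did not overlap. The difference of the tumour labelled rhabdomyosarcoma from the osteosarcomas was 2.60 (limma adjusted p = 0.0517) and that of the osteosarcomas from mc3T3 was 1.54 ± 0.67 (SE, limma adjusted p = 0.150), neither past the threshold. Cd40, a receptor through which T cells activate antigen-presenting cells, had 326 in the tumour labelled rhabdomyosarcoma, inside the 81.0 to 1014 of the osteosarcomas, and 33.4 in mc3T3.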
